A study of Homo sapiens with 12 samples.

Results

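The PRC2 subunits described here are 10 genes, EZH1, EZH2, EED, SUZ12, RBBP4, JARID2, AEBP2, MTF2, PHF1 and PHF19. They were found by symbol in a table of read counts with 53712 named genes, and all 10 were present and had enough counts to be among the 17228 genes tested. RNA was sequenced from H9 cells, an established human embryonic stem cell line, after transfection with 1 of 3 sets of oligonucleotides at 25 nM. ASO-L1 is an antisense set against RNA of the LINE1 (L1) transposon, SO-L1 is the sense set for the same element, and ASO-Ctr is an antisense set that targets nothing specific. Each group has 4 libraries, which the labels number as replicates 1 to 4.

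Cells of all 3 groups grew in RSeT, a medium for naive pluripotency, and shared every other agent. From transfection to harvest at 48 h they were exposed to 10 nM DZNep, which inhibits S-adenosylhomocysteine hydrolase and thereby methyltransferases, PRC2 among them, and to 5 nM TSA, a histone deacetylase inhibitor. The labels also give 0.7 uM trans-ISRIB, 5 uM emricasan and 10 uM Y-27632 at transfection, removed after 24 h. No group without DZNep and TSA was analysed, so the levels below are those of drug-treated cells in ASO-L1, SO-L1 and ASO-Ctr alike. Transfected cells were not sorted from untransfected ones, and all libraries come from 1 cell line. RNA of L1 elements is not among the named genes and was not analysed here.

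Polycomb repressive complex 2 (PRC2) is the enzyme complex that methylates histone H3 at lysine 27 and holds developmental genes silent in embryonic stem cells. EZH2 or its relative EZH1 carries the methyltransferase site, and it works only together with EED, SUZ12 and the histone chaperone RBBP4 (or RBBP7). Accessory subunits divide the complex into classes: a Polycomb-like protein (PHF1, MTF2 or PHF19) defines one, JARID2 with AEBP2 the other. The series title joins L1 with PRC2, and the question followed here is how RNA of the subunits differs between the oligo groups. Counts measure RNA, not subunit protein or histone methylation.

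Total counts per library lay between 20367989 and 32180891. The subunits had between 505 counts (EZH1 in ASO-L1 number 4) and 16040 counts (JARID2 in ASO-Ctr number 2) in a library. The labels do not say whether libraries of 1 group came from separate cultures, so p-values measure the spread between these libraries only. Libraries with numbers 1 and 2 stood apart from those with numbers 3 and 4 in all 3 oligo groups. The labels call the number a replicate and do not say of what kind. The number therefore entered the main test as a block, and calls of subunits that depend on it are given both ways. Comparisons of same-number libraries below rest on an assumed pairing. The cells had high RNA of pluripotency markers in every library, POU5F1 at 916 to 1153 and NANOG at 109 to 133 CPM, the usual scaling of counts to library size.

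The promoters of 4 subunits are shown because these genes moved in different ways in the results. EZH2, EZH1 and AEBP2 were lower in ASO-L1 and PHF1 was higher, while EZH2 stood opposite to EZH1 and AEBP2 between the number sets. The windows run from 250 bases before to 50 bases after a RefSeq start on GRCh38.p14, in the direction of transcription: chr7:148884242-148884541 on the minus strand for EZH2, chr17:42744991-42745290 on the minus strand for EZH1, chr12:19440349-19440648 on the plus strand for AEBP2 and chr6:33410764-33411063 on the plus strand for PHF1. For AEBP2 and PHF1 the whole window lies inside the gene as GENCODE 29 draws it. There the AEBP2 gene begins at chr12:19404045 and the PHF1 gene at chr6:33410399. Capitals mark matches, on either strand, to the E2F motif or to CCAAT.
EZH2: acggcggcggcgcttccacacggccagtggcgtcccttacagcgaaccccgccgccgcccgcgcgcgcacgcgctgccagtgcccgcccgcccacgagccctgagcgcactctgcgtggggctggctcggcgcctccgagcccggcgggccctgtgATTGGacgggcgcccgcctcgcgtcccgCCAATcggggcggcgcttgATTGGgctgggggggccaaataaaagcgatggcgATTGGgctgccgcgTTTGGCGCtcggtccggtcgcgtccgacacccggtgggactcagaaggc
EZH1: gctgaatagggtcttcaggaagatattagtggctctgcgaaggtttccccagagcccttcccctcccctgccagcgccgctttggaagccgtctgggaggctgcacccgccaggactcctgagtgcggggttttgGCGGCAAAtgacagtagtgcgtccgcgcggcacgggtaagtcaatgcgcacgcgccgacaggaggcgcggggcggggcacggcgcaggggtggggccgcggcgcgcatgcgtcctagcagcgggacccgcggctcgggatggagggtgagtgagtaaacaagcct
AEBP2: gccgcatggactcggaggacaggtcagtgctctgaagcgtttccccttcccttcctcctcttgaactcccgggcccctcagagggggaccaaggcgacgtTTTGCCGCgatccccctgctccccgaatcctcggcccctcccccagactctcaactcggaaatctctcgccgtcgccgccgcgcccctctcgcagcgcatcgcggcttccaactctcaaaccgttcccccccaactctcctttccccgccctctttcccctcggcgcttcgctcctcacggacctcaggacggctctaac
PHF1: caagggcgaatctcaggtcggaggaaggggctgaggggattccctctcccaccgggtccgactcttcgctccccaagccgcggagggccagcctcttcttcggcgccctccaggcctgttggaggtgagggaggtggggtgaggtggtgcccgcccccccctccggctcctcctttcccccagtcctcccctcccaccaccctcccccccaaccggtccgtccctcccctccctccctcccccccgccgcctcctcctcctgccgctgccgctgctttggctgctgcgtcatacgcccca
E2F factors drive genes of the cell cycle and CCAAT is bound by NF-Y. The E2F motif was searched as TTTCGCGC, TTTGGCGC, TTTCCCGC or TTTGCCGC. EZH2 had 1 E2F match at position 2 after the start and 4 CCAAT matches upstream of it. RefSeq gives EZH2 another window, chr7:148883436-148883735 on the minus strand, which had neither motif, and the one shown is the window with matches. EZH1 had 1 E2F match at position -115 and AEBP2 1 at position -150, and neither had CCAAT. The PHF1 window had neither motif. Of the 14 RefSeq windows of the 10 subunits, 6 held an E2F match, each in a different gene (EZH1, EZH2, SUZ12, AEBP2, MTF2 and PHF19). CCAAT matches were found for EZH2, EED, SUZ12, JARID2, PHF19 and RBBP4. Of all 35116 promoter windows 3.31% held an E2F match, or 4.66% of the 21752 windows within the subunits' range of GC content (52.3% to 79.7%), and 34.6% held CCAAT. These are matches of letters, and the motifs were picked with earlier results of these data known.

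Between ASO-L1 and ASO-Ctr, RNA of 6 of the 10 PRC2 subunits fell and that of 1 rose. EZH2 fell most, by 20.3%, followed by EZH1, AEBP2, JARID2, MTF2 and RBBP4, and PHF1 rose by 26.6%. EED, SUZ12 and PHF19 did not pass the test. A call is an adjusted p under 0.05 in edgeR's quasi-likelihood test with Benjamini-Hochberg adjustment over all 17228 genes, and by that measure 45.0% of all genes were called (22.5% higher and 22.5% lower). Among the 6656 genes within the subunits' range of mean CPM, 57.9% were called. The 7 called of 10 thus stand against a high background, and nothing particular to the subunits is read from the count. The median log2 change of the subunits was -0.11, beside -0.00 over all genes tested. With no block for the number, 2 of the 10 were called, PHF1 higher and JARID2 lower, against 22.3% of all genes. In bulk RNA, fewer cells of a type and less RNA per cell cannot be told apart.

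**Figure D1:**
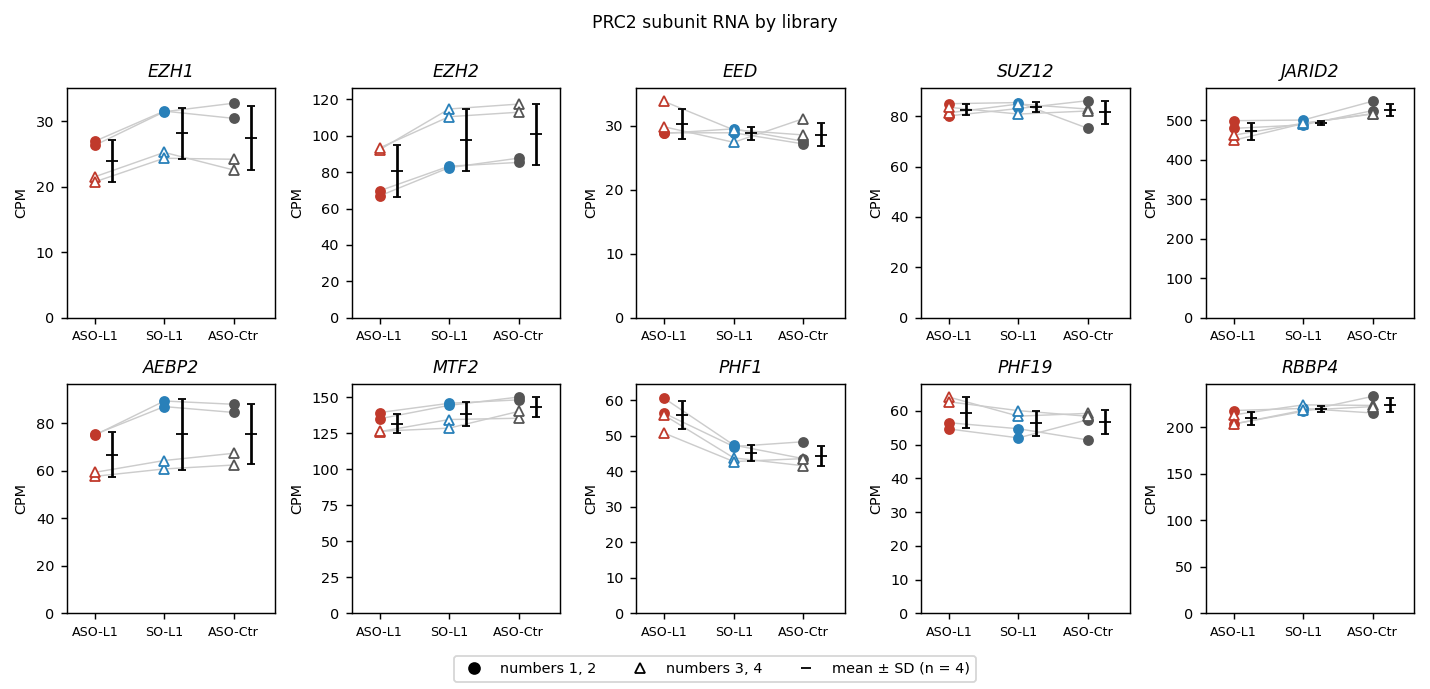
RNA of the 10 PRC2 subunits in each library, in CPM on a linear axis from 0, for ASO-L1, SO-L1 and ASO-Ctr. Filled circles are numbers 1 and 2, open triangles numbers 3 and 4, grey lines join libraries of the same number, and the black bars are the mean ± SD (n = 4); PHF1 lies higher in all 4 ASO-L1 libraries than in any other library.

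EZH2, the main methyltransferase of dividing cells, had 69.7, 66.9, 92.3 and 93.3 CPM in ASO-L1 numbers 1 to 4. It had 83.3, 82.5, 115 and 110.5 CPM in SO-L1, and 85.4, 87.7, 117 and 113 CPM in ASO-Ctr. In each group numbers 3 and 4 were the high ones, and within each number ASO-L1 was the lowest of the 3 groups. The full ranges of ASO-L1 and ASO-Ctr overlap, because ASO-L1 numbers 3 and 4 lie above ASO-Ctr numbers 1 and 2. EZH2 averaged 80.6 ± 14.2 CPM in ASO-L1 and 101 ± 16.7 CPM in ASO-Ctr (SD, n = 4 each), a log2 change of -0.33 ± 0.03 (SE; edgeR adjusted p = 4.46e-10). Without the block the change was -0.32, but its SE was 0.15 and the edgeR adjusted p 0.156. The change was -0.34 within numbers 1 and 2 and -0.31 within numbers 3 and 4.

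EZH1, the paralog that predominates in resting cells, had 26.3, 27.0, 21.5 and 20.8 CPM in ASO-L1. It had 31.5, 31.6, 25.3 and 24.4 CPM in SO-L1, and 32.8, 30.5, 22.6 and 24.2 CPM in ASO-Ctr. Here numbers 1 and 2 were the high ones in every group, the reverse of EZH2, and within either number set both ASO-L1 libraries lay below both ASO-Ctr libraries. The log2 change between ASO-L1 and ASO-Ctr was -0.20 ± 0.05 (edgeR adjusted p = 0.00155, and 0.338 with no block). It was -0.24 within numbers 1 and 2, and -0.14 within numbers 3 and 4, where it did not pass alone (edgeR adjusted p = 0.112). Thus both methyltransferase genes had less RNA in ASO-L1 than in ASO-Ctr when libraries of the same number were compared.

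The core subunits without a catalytic site moved little. EED, which binds trimethylated lysine 27 and stimulates the enzyme, had 28.9, 28.8, 33.8 and 29.8 CPM in ASO-L1, 28.9, 29.5, 29.4 and 27.4 CPM in SO-L1, and 27.2, 27.6, 28.6 and 31.1 CPM in ASO-Ctr. The groups overlap, with ASO-L1 number 3 the highest library. Its log2 change between ASO-L1 and ASO-Ctr was 0.08 ± 0.05 (95% interval -0.02 to 0.19, edgeR adjusted p = 0.192), and it passed when ASO-Ctr number 4 was left out (0.14, edgeR adjusted p = 0.0465).

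SUZ12, the scaffold on which the complex assembles, had 85.0, 80.1, 81.4 and 83.6 CPM in ASO-L1, 85.4, 83.1, 84.9 and 80.9 CPM in SO-L1, and 75.2, 86.2, 82.9 and 82.1 CPM in ASO-Ctr. ASO-Ctr held both the lowest and the highest of the 12 libraries. The log2 change between ASO-L1 and ASO-Ctr was 0.01 ± 0.04, with a 95% interval of -0.06 to 0.09 (edgeR adjusted p = 0.813). SUZ12P, a partial copy of SUZ12, had 516 to 850 counts per library, in all 29.6% as many as SUZ12 itself, so reads could be split between them in the authors' counting. SUZ12P had a log2 change of 0.04 ± 0.06 (edgeR adjusted p = 0.615).

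RBBP4, the histone-binding subunit that also serves other chromatin complexes, had 218, 204, 214 and 204 CPM in ASO-L1, 220.4, 217, 224 and 218 CPM in SO-L1, and 216, 233, 224 and 222 CPM in ASO-Ctr. ASO-L1 was lower than ASO-Ctr in 3 of 4 same-number pairs and the groups overlap at number 1. The log2 change was -0.09 ± 0.03 (edgeR adjusted p = 0.0135, and 0.0936 with no block). The call rests on single libraries: without ASO-Ctr number 2 the edgeR adjusted p was 0.132, without ASO-L1 number 2 it was 0.0687, and without ASO-Ctr number 4 it was 0.0564.

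**Figure D2:**
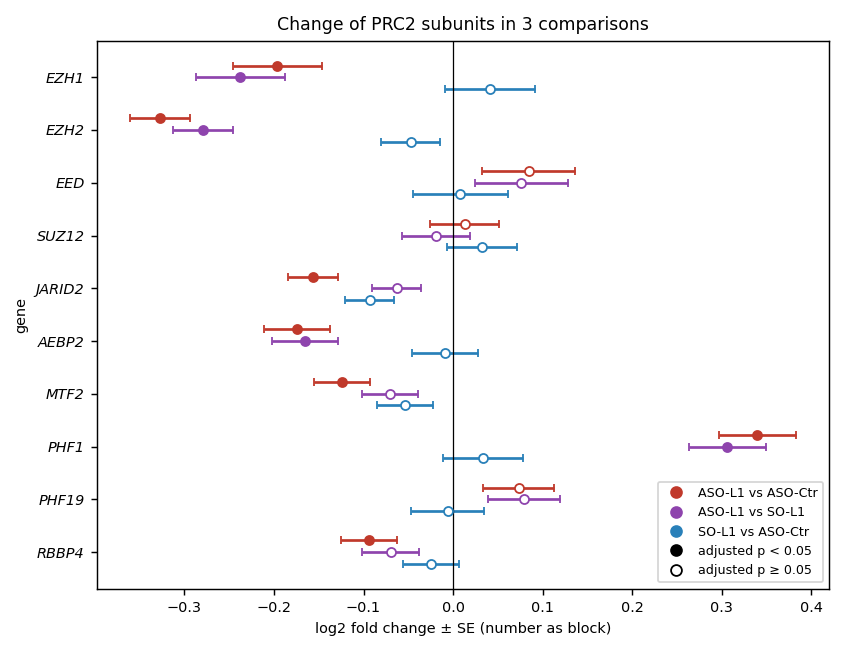
Log2 fold change ± SE of each PRC2 subunit in ASO-L1 against ASO-Ctr, ASO-L1 against SO-L1 and SO-L1 against ASO-Ctr, with library number as block; filled points have an adjusted p under 0.05. EZH2 (-0.33 and -0.28) and PHF1 (0.34 and 0.31) lie farthest from 0 in the 2 comparisons of ASO-L1, which share the ASO-L1 libraries, and no point of SO-L1 against ASO-Ctr is filled.

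Among the Polycomb-like proteins, which bring PRC2 to DNA rich in CpG, the 3 genes gave 3 different results. PHF1 had 56.3, 60.5, 55.8 and 50.7 CPM in ASO-L1, 46.9, 47.4, 43.8 and 42.7 CPM in SO-L1, and 48.3, 43.5, 41.5 and 43.5 CPM in ASO-Ctr. All 4 ASO-L1 libraries lay above all 8 others. The log2 change between ASO-L1 and ASO-Ctr was 0.34 ± 0.04 (edgeR adjusted p = 4.73e-08, and 0.00213 with no block), at 0.36 within numbers 1 and 2 and 0.33 within numbers 3 and 4.

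MTF2 is the Polycomb-like protein best known from embryonic stem cells. It had 139, 135, 126 and 127 CPM in ASO-L1, 146, 144, 135 and 129 CPM in SO-L1, and 148, 150.3, 136 and 140.3 CPM in ASO-Ctr. ASO-L1 was the lowest group within every number, while the ranges overlap. Its log2 change between ASO-L1 and ASO-Ctr was -0.12 ± 0.03 (edgeR adjusted p = 0.00130, and 0.126 with no block). It was -0.12 within either number set.

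PHF19, the third Polycomb-like protein, had 54.6, 56.5, 64.1 and 62.7 CPM in ASO-L1, 52.0, 54.7, 58.4 and 60.1 CPM in SO-L1, and 57.4, 51.4, 59.3 and 58.4 CPM in ASO-Ctr. The groups overlap, and ASO-L1 numbers 3 and 4 were the highest libraries. The log2 change between ASO-L1 and ASO-Ctr was 0.07 ± 0.04, with a 95% interval of -0.01 to 0.15 (edgeR adjusted p = 0.140). Without ASO-Ctr number 1 it was 0.12 and passed (edgeR adjusted p = 0.0247).

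In the other class, JARID2, a DNA-binding relative of histone demethylases that lacks their activity, was the subunit with the most counts. It had 479, 498, 449 and 462 CPM in ASO-L1, 488, 500.1, 491 and 492 CPM in SO-L1, and 524, 548, 516 and 515 CPM in ASO-Ctr. Every ASO-L1 and every SO-L1 library lay below every ASO-Ctr library. JARID2 averaged 472 ± 21.5 CPM in ASO-L1 and 526 ± 15.1 CPM in ASO-Ctr (SD, n = 4 each), a log2 change of -0.16 ± 0.03 (edgeR adjusted p = 1.61e-05, and 0.0101 with no block).

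AEBP2, a zinc finger protein that stabilises the complex with JARID2, had 75.1, 75.4, 57.7 and 59.4 CPM in ASO-L1, 89.4, 87.1, 60.8 and 64.4 CPM in SO-L1, and 88.1, 84.6, 62.5 and 67.4 CPM in ASO-Ctr. Numbers 1 and 2 were high in all groups, and within each number ASO-L1 was the lowest. The log2 change between ASO-L1 and ASO-Ctr was -0.17 ± 0.04 (edgeR adjusted p = 1.77e-04, and 0.461 with no block). JARID2 and PHF1 were the 2 subunits whose ASO-L1 and ASO-Ctr libraries did not overlap, against 25.5% of all genes tested. In all 4 same-number pairs 5 subunits were lower and 1 higher in ASO-L1, against 52.6% of all genes with 1 direction in every pair.

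Summed over the 10 subunits, RNA was at 1192, 1214 and 1233 CPM (lowest, median and highest) in ASO-L1, 1249, 1269 and 1278 CPM in SO-L1, and 1290.3, 1299.8 and 1343 CPM in ASO-Ctr. The 3 groups do not overlap in this sum, for which no share over other gene sets was computed. Between SO-L1 and ASO-Ctr no single subunit was called, and only JARID2 had libraries that did not overlap. JARID2 made up 37.6% to 40.4% of it in ASO-L1, 38.4% to 39.4% in SO-L1 and 39.7% to 40.8% in ASO-Ctr. Without JARID2 the sum was 730.3 to 754 CPM in ASO-L1, 757 to 784 CPM in SO-L1 and 774 to 795 CPM in ASO-Ctr, so that ASO-L1 still lay below both other groups, which then overlap each other.

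ASO-L1 against SO-L1 sets the antisense oligos beside oligos of the same element in the sense orientation. In this comparison 3 subunits fell (EZH2, EZH1 and AEBP2) and PHF1 rose. These 4 called of 10 stand beside 43.4% of all genes (21.6% higher and 21.7% lower). Among the 6656 genes within the subunits' range of mean CPM, 55.9% were called. Nothing particular to the subunits is read from the count. The median log2 change was -0.07 for the subunits and -0.00 for all genes. EZH2 averaged 80.6 ± 14.2 CPM in ASO-L1 and 97.7 ± 17.3 CPM in SO-L1, a log2 change of -0.28 ± 0.03 (edgeR adjusted p = 1.71e-08, and 0.231 with no block). EZH1 had -0.24 ± 0.05 (edgeR adjusted p = 1.97e-04) and AEBP2 -0.17 ± 0.04 (edgeR adjusted p = 3.72e-04), and neither passed with no block (0.267 and 0.487). PHF1 had 0.31 ± 0.04 (edgeR adjusted p = 3.91e-07), passed with no block too (0.00452), and was the subunit whose groups did not overlap, against 24.2% of all genes. With no block it was the 1 subunit called, against 20.3% of all genes. The log2 changes within numbers 1 and 2 and within numbers 3 and 4 were -0.28 and -0.27 for EZH2, -0.24 and -0.22 for EZH1, and 0.31 and 0.31 for PHF1.

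JARID2, which fell against ASO-Ctr, had -0.06 ± 0.03 against SO-L1 and did not pass (edgeR adjusted p = 0.0636), although it was lower in 4 of 4 pairs, where 51.4% of all genes had 1 direction in every pair. It passed without ASO-L1 number 1 (edgeR adjusted p = 0.0400) or ASO-L1 number 2 (0.0322). MTF2 (-0.07) and RBBP4 (-0.07) were also lower in 4 of 4 pairs without passing, at edgeR adjusted p = 0.0667 and 0.0707. MTF2 passed without SO-L1 number 4 (0.0330) and RBBP4 without ASO-L1 number 1 (0.0146). PHF19 (0.08) was higher in 4 of 4 pairs and did not pass either (edgeR adjusted p = 0.113). EED (0.08) and SUZ12 (-0.02) had edgeR adjusted p of 0.246 and 0.727. In the authors' deposited table for the same 2 groups, EZH1 (-0.23, adjusted p = 0.0220), EZH2 (-0.28, 0.00903) and PHF1 (0.31, 2.72e-04) had adjusted p under 0.05. AEBP2 (-0.16) had 0.142 in the authors' deposited table.

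SO-L1 against ASO-Ctr compares the 2 groups that lack L1 antisense oligos. No subunit was called by edgeR's quasi-likelihood test (0 of 10, against 1.41% of all genes). Of the 10 subunits JARID2 alone had an unadjusted p under 0.05, as had 1637 of the 17228 genes tested. JARID2 averaged 493 ± 5.20 CPM in SO-L1 and 526 ± 15.1 CPM in ASO-Ctr, with no overlap of the libraries, which 2.30% of all genes showed. Its log2 change was -0.09 ± 0.03 (edgeR adjusted p = 0.0957). DESeq2 called it (adjusted p = 0.0474), as did edgeR with only these 2 groups in the fit (adjusted p = 0.0307), and limma-voom called 0 subunits. With no block the edgeR adjusted p of JARID2 was 0.99996. EZH2 was lower in 4 of 4 pairs, by -0.05 ± 0.03 on the log2 scale (95% interval -0.11 to 0.02, edgeR adjusted p = 0.734), where 18.8% of all genes had 1 direction in every pair. PHF1 had 0.03 ± 0.04 (95% interval -0.05 to 0.12). By group mean JARID2 thus lay in the order ASO-L1, SO-L1, ASO-Ctr from low to high, as did EZH2, AEBP2, MTF2 and RBBP4. Neither step of that order was called for JARID2 in the main test. PHF1 set ASO-L1 apart from the other 2 groups. The 3 comparisons share libraries and are not independent of each other.

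**Figure D3:**
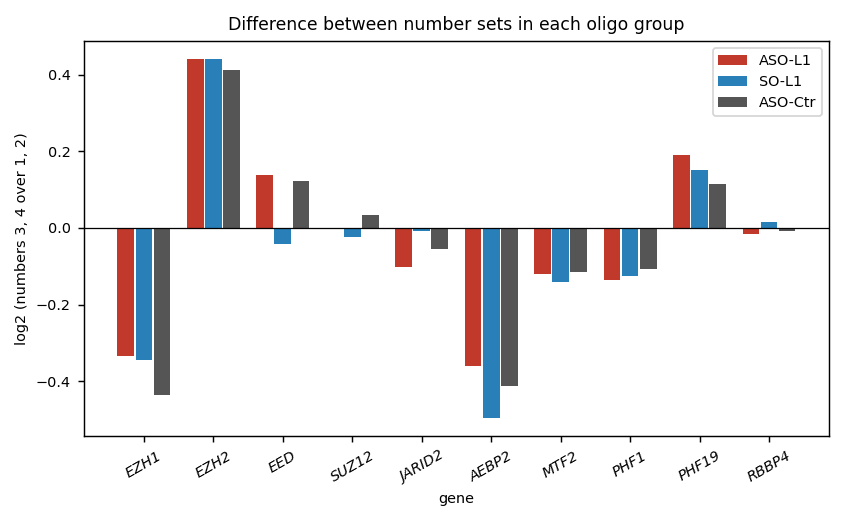
Difference between the number sets for each subunit within ASO-L1, SO-L1 and ASO-Ctr (bars). It is the mean log2 CPM of numbers 3 and 4 minus that of numbers 1 and 2, written as a log2 ratio. EZH2 is high in numbers 3 and 4 in all 3 groups (0.44, 0.44 and 0.41), and EZH1 and AEBP2 are low there.

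For several subunits the difference between the number sets was larger than that between oligo groups. The log2 ratio of numbers 3 and 4 over numbers 1 and 2 was 0.44 in ASO-L1, 0.44 in SO-L1 and 0.41 in ASO-Ctr for EZH2. It was -0.33, -0.35 and -0.44 for EZH1 and -0.36, -0.50 and -0.41 for AEBP2 in the same groups. In none of the 3 groups did the sets overlap for these genes, and the same held for MTF2 and PHF19. The share of all genes without such overlap was not counted, so nothing particular to these genes is read from it. EZH2 ranked at percentile 89.0, 89.6 and 88.3 of all genes tested in this ratio, so about 1 gene in 10 had a higher one. For this ranking log2 CPM was computed with a prior count of 2. MTF2 was at -0.12, -0.14 and -0.11 and PHF19 at 0.19, 0.15 and 0.12, while RBBP4 and SUZ12 stayed within 0.04 of 0 in every group.

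The ratio of EZH2 to EZH1 counts joins both opposite differences. It averaged 2.56 in ASO-L1, 2.63 in SO-L1 and 2.74 in ASO-Ctr for numbers 1 and 2, and 4.39 in ASO-L1, 4.54 in SO-L1 and 4.94 in ASO-Ctr for numbers 3 and 4. Over all numbers it was 3.48 ± 1.06 in ASO-L1, 3.58 ± 1.10 in SO-L1 and 3.84 ± 1.29 in ASO-Ctr (SD, n = 4 each). The groups therefore differ in this ratio by much less than the number sets do.

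**Figure D4:**
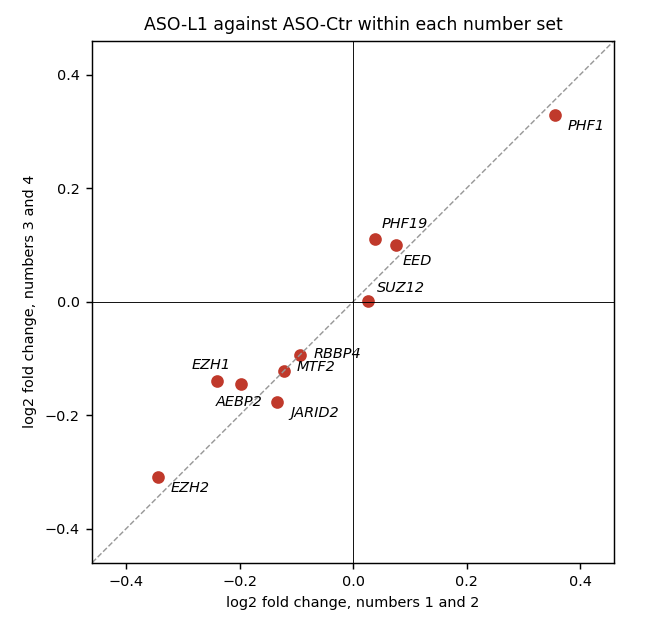
Log2 fold change of each subunit in ASO-L1 against ASO-Ctr, computed within numbers 1 and 2 (x axis) and within numbers 3 and 4 (y axis); the dashed line marks equal values. All 10 subunits have the same sign in both sets, which was not counted over all genes. EZH2 lies at -0.34 and -0.31, PHF1 at 0.36 and 0.33, and SUZ12 near 0 (0.026 and 0.0017).

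The change of the subunits between ASO-L1 and ASO-Ctr did not differ detectably between the number sets. JARID2 had -0.13 within numbers 1 and 2 and -0.18 within numbers 3 and 4, AEBP2 -0.20 and -0.15, and RBBP4 -0.09 and -0.09. In a test of the difference itself (edgeR interaction term), 0 of 10 subunits were called, against 1.04% of all genes, and 0 had an unadjusted p under 0.05. The smallest adjusted p was 0.803. For ASO-L1 against SO-L1 the same test called 0 subunits, against 2.35% of all genes, with a smallest adjusted p of 0.341. AEBP2 was the 1 subunit with an unadjusted p under 0.05 there, at -0.23 within numbers 1 and 2 and -0.09 within numbers 3 and 4. The share of all genes with an unadjusted p under 0.05 was not counted for the interaction tests. DESeq2 and limma-voom called 0 subunits in both interaction tests.

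Levels can be compared between genes only per length, here as CPM per kb of the union of a gene's exons in GENCODE 29 on GRCh38. JARID2 (chr6:15246296-15522040, plus strand) stood highest, at 78.5 ± 3.58 in ASO-L1, 81.9 ± 0.865 in SO-L1 and 87.4 ± 2.51 CPM per kb in ASO-Ctr. MTF2 (chr1:93079235-93139081, plus strand) at 22.3 ± 1.11, 23.4 ± 1.39 and 24.3 ± 1.17 in the same groups and RBBP4 (chr1:32651142-32686211, plus strand) at 22.2 ± 0.771, 23.2 ± 0.323 and 23.6 ± 0.777 CPM per kb did not differ beyond their spread. EZH2 (chr7:148807383-148884321, minus strand) followed, at 17.8 ± 3.14, 21.6 ± 3.82 and 22.3 ± 3.69 CPM per kb. The SD of EZH2 reached the means of MTF2 and RBBP4 in SO-L1 and ASO-Ctr, and reached neither in ASO-L1.

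PHF1 (chr6:33410399-33416453, plus strand) stood at 15.5 ± 1.12 CPM per kb in ASO-L1, 12.6 ± 0.642 in SO-L1 and 12.3 ± 0.797 in ASO-Ctr. SUZ12 (chr17:31937018-32001045, plus strand) had 12.6, 12.8 and 12.5 CPM per kb, within the spread of PHF1 in SO-L1 and ASO-Ctr and below it in ASO-L1. AEBP2 (chr12:19404045-19720801, plus strand) came next at 10.2, 11.5 and 11.5 CPM per kb. Its SD of 1.47 to 2.27 reaches PHF1 and SUZ12 in SO-L1 and ASO-Ctr.

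PHF19 (chr9:120855652-120894896, minus strand) had 8.83, 8.36 and 8.41 CPM per kb in ASO-L1, SO-L1 and ASO-Ctr. EED (chr11:86244544-86278813, plus strand) had 4.33, 4.11 and 4.08 CPM per kb, and EZH1 (chr17:42700275-42745049, minus strand) was lowest at 3.42, 4.03 and 3.94. EED and EZH1 did not differ beyond their spread in SO-L1 and ASO-Ctr. By the length of the longest coding transcript instead, JARID2 stayed highest and EZH1 lowest, while EED moved up to 13.7, 12.96 and 12.9 CPM per kb, beside PHF19 at 14.0, 13.3 and 13.4. EZH2 moved up as well, to means of 30.5, 37.0 and 38.2 CPM per kb. These lay above RBBP4 (26.4, 27.7 and 28.2) in all 3 groups. They lay above MTF2 (32.0, 33.6 and 34.8) in SO-L1 and ASO-Ctr but not in ASO-L1, so the place of EZH2 depends on the length used. The authors counted on build hg19 and their gene models are not given in the sources used here, so these lengths are approximate.

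The tested genes whose RNA ran most like that of EZH2 over the 12 libraries were FHL1 (Pearson's r = 0.992 on log2 CPM), JAZF1 (0.988), HPGD (0.986), SNX1 (0.986) and KLKB1 (0.985), out of 9906 genes with a mean of at least 10 CPM. For PHF1 they were AP3M2 (0.975), PPP1R13B (0.968), EGFL8 (0.965), SNHG1 (0.961) and KIF5A (0.961), and for JARID2 they were DHX9 (0.949), WBSCR17 (0.947), ARHGAP35 (0.939), NBAS (0.928) and TMEM256 (0.915). Among the subunits themselves EZH1 and AEBP2 ran closest together (r = 0.959), and MTF2 and PHF19 ran most opposite (r = -0.864). All of these are descriptions over libraries that share the oligo groups and the number sets.

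Other Polycomb genes gave a mixed picture in ASO-L1 against ASO-Ctr. Of 5 further PRC2 subunits and inhibitors, 4 were tested, 0 rose and 1 fell, LCORL (-0.23 ± 0.08, edgeR adjusted p = 0.0265, and 0.166 with no block). RBBP7, which can take the place of RBBP4, had 343 ± 7.05 CPM in ASO-L1 and 344 ± 6.92 CPM in ASO-Ctr (-0.00 ± 0.03, edgeR adjusted p = 0.908). CXorf67, an inhibitor of EZH2, had under 1 CPM in every group. The counts of all lists below read against the 45.0% of genes called.

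PRC1 is the sister complex, which ubiquitinates histone H2A. Of its 26 subunits 7 rose and 7 fell (4 and 4 with no block), with a median log2 change of 0.03. PCGF1 rose to 14.8 ± 0.483 CPM in ASO-L1, against 7.93 ± 1.22 CPM in ASO-Ctr (0.91 ± 0.08, edgeR adjusted p = 3.32e-12). BMI1 rose by a log2 change of 0.54 ± 0.08 (edgeR adjusted p = 1.40e-06, and 0.112 with no block). CBX2, a reader of methylated lysine 27, had -0.33 ± 0.04 (edgeR adjusted p = 3.32e-09), a fall of the size seen for EZH2. The catalytic subunits RING1 (0.09 ± 0.07) and RNF2 (-0.06 ± 0.04) did not pass (edgeR adjusted p = 0.273 and 0.252).

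Of 4 enzymes that remove methyl groups from lysine 27 or acetylate it, CREBBP, an acetyltransferase, rose (0.43 ± 0.05, edgeR adjusted p = 6.49e-06) and KDM6A, a demethylase, fell (-0.09 ± 0.04, edgeR adjusted p = 0.0421, and 0.377 with no block). In the H2A deubiquitinase complex 0 of 4 genes rose and ASXL1 fell (-0.21 ± 0.06, edgeR adjusted p = 0.00207, and 0.490 with no block). Of 5 methyltransferases for lysine 36 of histone H3, 0 rose and WHSC1 fell (-0.08 ± 0.03, edgeR adjusted p = 0.0465, and 0.274 with no block). Of 5 targets of the drugs in the medium 2 rose, AHCY, the target of DZNep (0.09 ± 0.03, edgeR adjusted p = 0.0155), and HDAC1 (0.15 ± 0.03, edgeR adjusted p = 7.18e-05), and neither passed with no block (0.159 and 0.184). The deacetylases HDAC2 (-0.11 ± 0.03) and HDAC8 (-0.25 ± 0.06) fell, with no block as well.

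**Figure D5:**
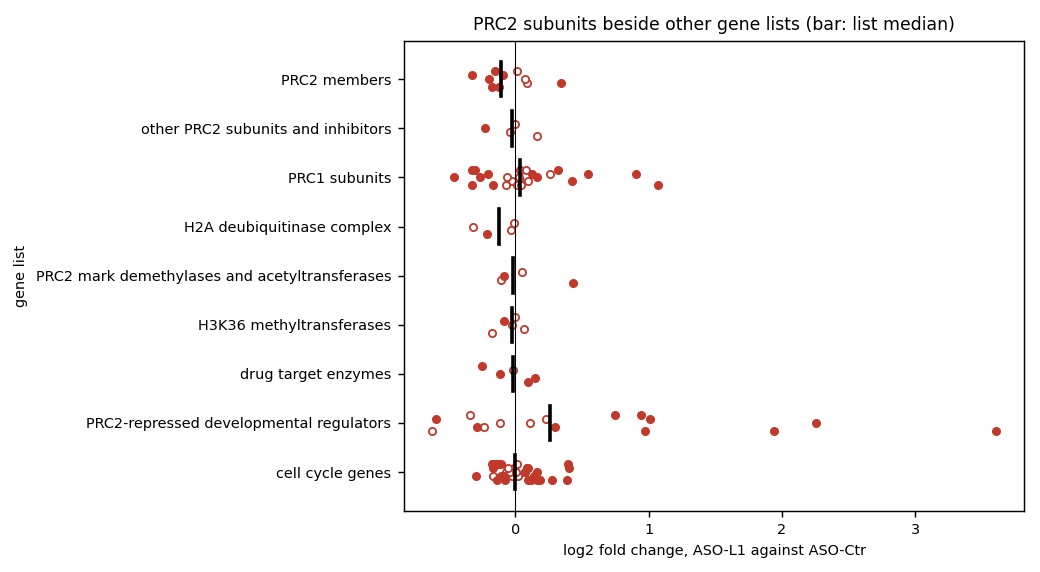
Log2 fold change in ASO-L1 against ASO-Ctr of the PRC2 subunits and of 8 other gene lists; filled points have an adjusted p under 0.05 and bars are list medians. The PRC2 subunits span -0.33 to 0.34, and the developmental regulators spread more widely; the fitted position of those near 0 CPM in ASO-Ctr, such as GATA6, depends on the prior count.

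Developmental regulators known to be repressed by PRC2 were mostly silent: 19 of the 32 listed had under 1 CPM in every group. Their summed RNA was 78.9 to 86.9 CPM in ASO-L1, 76.3 to 88.5 CPM in SO-L1 and 72.3 to 89.8 CPM in ASO-Ctr, ranges that overlap. In ASO-L1 against ASO-Ctr 16 were tested, of which 8 rose and 2 fell (7 and 1 with no block). Genes such as GATA6 and SOX18 could pass the filter on low counts through ASO-L1 alone, so this count does not stand for the whole list. TWIST1, a mesenchymal regulator, rose to 12.4 ± 0.859 CPM in ASO-L1, against 3.25 ± 0.813 CPM in ASO-Ctr. It was also higher in SO-L1 than in ASO-Ctr, at 4.98 ± 0.427 CPM (0.62 ± 0.11, edgeR adjusted p = 7.82e-04, and 0.369 with no block). GATA6, an endoderm factor, had 1.14 ± 0.368 CPM in ASO-L1 and 0.0905 ± 0.127 CPM in ASO-Ctr, and no fold is given against so low a level. SOX21 fell to 28.4 ± 2.96 CPM in ASO-L1, against 42.9 ± 5.03 CPM in ASO-Ctr. In ASO-L1 against ASO-Ctr, TWIST1 and SOX21 passed with no block as well.

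Pluripotency markers moved in the same direction as most PRC2 subunits. All 8 listed fell in ASO-L1 against ASO-Ctr, where 22.5% of all genes were lower, and their median log2 change was -0.18. With no block 4 of the 8 fell, beside 22.3% of all genes called in either direction. Against SO-L1 6 of the 8 fell, beside 21.7% of all genes. Their summed level was 5190.0 to 5856 CPM in ASO-L1, 5626 to 6348 CPM in SO-L1 and 5771 to 6583 CPM in ASO-Ctr. Among cell cycle genes 14 of 36 were higher and 11 lower in ASO-L1 against ASO-Ctr, with a median of -0.00 (6 higher and 3 lower with no block). Of 9 fibroblast markers, COL3A1, DCN, LUM, PDGFRB and FAP had under 1 CPM in every library, FAP at 0 in all, and the summed level was 301 to 399 CPM in ASO-L1, 242 to 367 CPM in SO-L1 and 255 to 383 CPM in ASO-Ctr. Of the 4 fibroblast markers tested 2 rose and 2 fell (1 and 0 with no block). COL1A1 rose (0.83 ± 0.08, edgeR adjusted p = 2.65e-05, and 0.0425 with no block) and COL1A2 fell (-0.17 ± 0.03, edgeR adjusted p = 5.64e-05, and 0.272 with no block).

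Of 10 trophectoderm and amnion markers 7, and of 8 primitive endoderm markers 6, had under 1 CPM in every group. Summed, the trophectoderm list was at 58.7 to 63.5 CPM in ASO-L1, 55.6 to 72.3 CPM in SO-L1 and 57.8 to 74.7 CPM in ASO-Ctr. Of its 4 tested genes 1 rose and 1 fell (1 and 0 with no block). The keratin KRT7 rose to 2.94 ± 1.01 CPM in ASO-L1, against 1.52 ± 0.366 CPM in ASO-Ctr (0.94 ± 0.15, edgeR adjusted p = 2.96e-06, and 0.0242 with no block). TFAP2C, which naive stem cells also express, fell (-0.16 ± 0.04, edgeR adjusted p = 0.00184, and 0.381 with no block). The primitive endoderm list was at 17.7 to 20.9 CPM in ASO-L1, 24.0 to 29.8 CPM in SO-L1 and 25.4 to 31.6 CPM in ASO-Ctr, mostly from PDGFRA, which fell (-0.70 ± 0.06, edgeR adjusted p = 1.07e-12, and 7.93e-05 with no block). Of its 4 tested genes PDGFRA was called lower and GATA6, at the low levels given above, was called higher. The part of these cell type markers in the differences of EZH2, JARID2 and the other subunits was not tested.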

How the data were processed

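Poly(A) RNA libraries of 12 samples were made with a directional kit, per the labels' protocols. Trim Galore 0.4.0, TopHat2 2.0.13, featureCounts from Subread 1.5.0 and build hg19 are named per the submitters' processing notes; gene models and strand setting are not given in the sources used here. The deposited counts are whole numbers per gene symbol, and a row with no name held 10 counts in all. The authors also deposited log2 normalised values, batch corrected by a method not given, and a table of ASO-L1 against SO-L1 whose log2 fold changes, p-values and adjusted p-values are the authors' own. The count table carries the tag rmDup, which no source used here explains, so whether duplicate reads were removed is unknown. Its header line starts 1 column early, so each name was read for the column to its right. As a check, each of the 12 count columns correlated best with the log2 column of its own name (r = 0.637 to 0.857 on deviations from gene means). No column belonged to another sample.

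Counts were tested in R 4.3.3 with edgeR 4.0.16: filterByExpr (least count 10, least total 15), TMM factors, a robust quasi-likelihood fit of all 12 libraries with group and number, two-sided F tests, and Benjamini-Hochberg adjustment over 17228 genes at 0.05. SE is the log2 change divided by the square root of F, and 95% intervals are normal. CPM uses effective library sizes. The interaction test set numbers 3 and 4 against 1 and 2. Alternatives were no block, RLE factors, DESeq2 1.42.0, limma-voom (limma 3.58.1), no filter, 2 groups, each number set, each library left out, the authors' log2 values and, chosen after seeing the data, the number set as block. Scripts were tested on simulated data.

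With group means removed, libraries of the same number correlated across genes at r = 0.450 to 0.561 in all 12 pairs. Libraries of the other number of the same set correlated alike (0.455 to 0.543), and those of different sets at -0.530 to -0.426. These values set the number sets apart but do not single out pairs by number. Samples were still paired by number, so counts of same-number pairs rest on an assumed pairing. The labels do not state the pairing. Members and gene lists were chosen with earlier results of these data known. Named genes are all 10 subunits; from each other list, some of up to 4 called genes of smallest p, or of 2 with the highest mean where none passed; and 5 genes most like EZH2, JARID2 and PHF1. RBBP7, CXorf67, RING1 and RNF2 were named after their values were seen. A gene of the lists that the rule takes is not reported here. Sequences are from RefSeq promoters on GRCh38.p14, which matched all 10 subunits. Depth of 20367989 to 32180891 counts limits precision for genes under 1 CPM.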

Additional observations from a re-analysis of the deposited data

How the results depend on the processing

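Leaving the replicate block out reduced calls most. Without it, 3847 genes (7747 with the block) and 2 of the 7 subunits were called in ASO-L1 against ASO-Ctr, 3497 genes (7469) and 1 of the 4 subunits in ASO-L1 against SO-L1, and 5 genes (243) in SO-L1 against ASO-Ctr. The 11 calls of subunits kept their sign in all 242 alternatives tried and passed the test in 228. In SO-L1 against ASO-Ctr, genes called were 158 with DESeq2, 549 with only 2 groups, 123 in numbers 1 and 2, 397 from the authors' log2 values and 143 to 296 with 1 library left out. DESeq2 and the fit of only 2 groups each called 1 subunit there. Genes called in the interaction test were 47 with DESeq2, 107 with only 2 groups and 62 to 435 with 1 library left out for ASO-L1 against ASO-Ctr (180), and 88, 673 and 92 to 801 for ASO-L1 against SO-L1 (405). That test was not run within 1 number set or on the authors' values. With 1 library left out, 6 to 8 and 4 to 6 subunits were called in the ASO-L1 comparisons.

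Changes of sign occurred only among subunits that did not pass, and the cause was not tested. With 1 library left out, SUZ12 ranged from -0.036 to 0.049 in ASO-L1 against ASO-Ctr and from -0.051 to 0.0036 in ASO-L1 against SO-L1. In SO-L1 against ASO-Ctr the ranges were -0.0011 to 0.077 for EZH1, -0.029 to 0.065 for EED, -0.016 to 0.069 for SUZ12, -0.029 to 0.010 for AEBP2, -0.0066 to 0.064 for PHF1, -0.032 to 0.037 for PHF19 and -0.052 to 0.0068 for RBBP4. Within numbers 1 and 2, EED was at -0.020 in ASO-L1 against SO-L1 and AEBP2 at 0.034 in SO-L1 against ASO-Ctr. Within numbers 3 and 4, EED was at -0.075 and PHF19 at 0.0035 in SO-L1 against ASO-Ctr. EED passed in ASO-L1 against SO-L1 within numbers 3 and 4 (0.17, edgeR adjusted p = 0.0182), as did JARID2 (-0.10, edgeR adjusted p = 0.00850), while AEBP2 did not (edgeR adjusted p = 0.154). RBBP4 did not pass in ASO-L1 against ASO-Ctr within numbers 1 and 2 (edgeR adjusted p = 0.108).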
